A study of Mus musculus with 9 samples.

Results

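Integrins are the membrane receptors with which macrophages hold on to other cells and to the extracellular matrix. The account here covers 10 integrin subunit genes, which are not the 10 of highest level in these cells. They were chosen by name, as the α subunit genes Itgam, Itgax, Itgal, Itga4, Itga6 and Itgav and the β subunit genes Itgb1, Itgb2, Itgb3 and Itgb5. The deposited table holds 24607 genes, and all 10 were in it. No measured value was used in the rule, but the genes were chosen with earlier results of these data known.

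RNA was sequenced from mouse bone marrow-derived macrophages in 9 libraries, 3 for each of 3 groups. Every group, the reference included, came from Cx3cr1-gfp/+ mice, in which one allele of the fractalkine receptor gene is replaced by GFP, and every group received 50 ng/ml M-CSF with a labelled time of 5 d. The groups were macrophages cultured alone (monoculture), macrophages cultured with dorsal root ganglion (DRG) sensory neurons (co-culture), and macrophages given TGF-β at 0.02 ng/ml without neurons. Cells were sorted on CD11b and CD64 before lysis, so Itgam, the gene of CD11b, encodes a protein that the cells were selected for. The design text gives 3 mice and does not say whether one mouse supplied all 3 groups, and the p-values measure the spread between these libraries. The co-culture and the TGF-β group were both compared with the same 3 monoculture libraries.

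An integrin is a pair of 1 α and 1 β chain, and the pair decides which ligand is bound. The β2 chain, made by leukocytes, joins αM (Mac-1), αX or αL (LFA-1) and binds ICAMs and complement fragments, while β1 with α4 or α6 binds fibronectin, VCAM-1 or laminins. The αv chain with β3 or β5 binds vitronectin and other ligands with an RGD motif and takes part in the uptake of dying cells, and αv with β8 releases active TGF-β from its latent complex.

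Library depth ran from 46.8 to 308.8 M reads, and the fewest reads behind any value of the 10 genes were 172, for Itgax in TGF-β library 3. Values are normalized counts, which are reads divided by 1 size factor for each library. The macrophage markers were high in every library, with a summed level of 8 genes of 360744 to 430525 in monoculture and 377647 to 417282 in co-culture. The co-culture libraries also held RNA of other cells. The summed level of 15 fibroblast markers was 6562 to 9594 in co-culture against 55.8 to 160.7 in monoculture and 27.1 to 120.2 with TGF-β. Of its genes 12 reached the level filter of the test, 9 of them only through the co-culture libraries, and the remaining 3 rose. Of 10 glial markers, 7 reached the filter only through co-culture, and the remaining 3 gave 2 calls, both lower. The 10 summed to 4988 to 5567 in co-culture against 6051 to 6933 in monoculture. Most of that sum was Mbp, at 3364 to 3744 and 5198 to 5897. The Schwann cell gene Sox10 was at most at 0.77 in monoculture and at 100.8 to 217.3 in co-culture. Sensory neuron markers (11 of 12 in the table) summed to 155.5 to 271.8 in co-culture against 84.5 to 103.9 in monoculture. Endothelial markers (7 of 8 in the table), mostly Kdr, summed to 1486 to 1957 against 2002 to 2551. Of the 5 that were tested, 3 were called higher and 2 lower in co-culture, beside 15.9% and 15.0% of all tested genes. Egfl7, among the higher ones, reached the level filter only through the co-culture libraries. Lymphocyte markers (3 of 8 in the table) summed to at most 12.5 in any library, and dendritic cell markers (7 of 8 in the table) summed to 22.6 to 54.7 in co-culture against 128.9 to 246.4 in monoculture. Most of the latter was Kit, which stem cells and mast cells also make, and without it the sums were 20.6 to 50.8 and 29.2 to 46.5. In bulk RNA, fewer cells of a type and less RNA per cell cannot be told apart.

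The first comparison asks which subunit genes differ when macrophages share the culture with sensory neurons. Itgax, Itgal, Itgav, Itgb3 and Itgb5 rose in co-culture, by between 0.72 (Itgb3) and 3.32 (Itgal) on the log2 scale, and Itgb1 and Itgb2 fell. No call was made for Itgam, Itga4 and Itga6. The test was limma on log2(normalized count + 10), which understates the change of low genes, with p adjusted over all 16328 tested genes and a call at an adjusted p under 0.05. These 7 calls among 10 genes stand beside 30.8% of all tested genes called in this comparison, 15.9% higher and 15.0% lower. The median log2 difference was 0.45 over the 10 genes and 0.03 over all tested genes.

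The second comparison asks what TGF-β alone does to the same genes. Itgb5 rose and no other member passed the test, which is 1 of 10 beside 2.52% of all tested genes, 1.13% called higher. Against the TGF-β group, the co-culture was higher in Itgax, Itgal, Itgav and Itgb5 and lower in Itgb2, which is 5 of 10 beside 25.3% of all tested genes, 13.4% higher and 11.9% lower. The median log2 difference of the 10 genes was 0.06 with TGF-β and 0.25 between co-culture and TGF-β. For all tested genes it was -0.01 and 0.01.

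**Figure D1:**
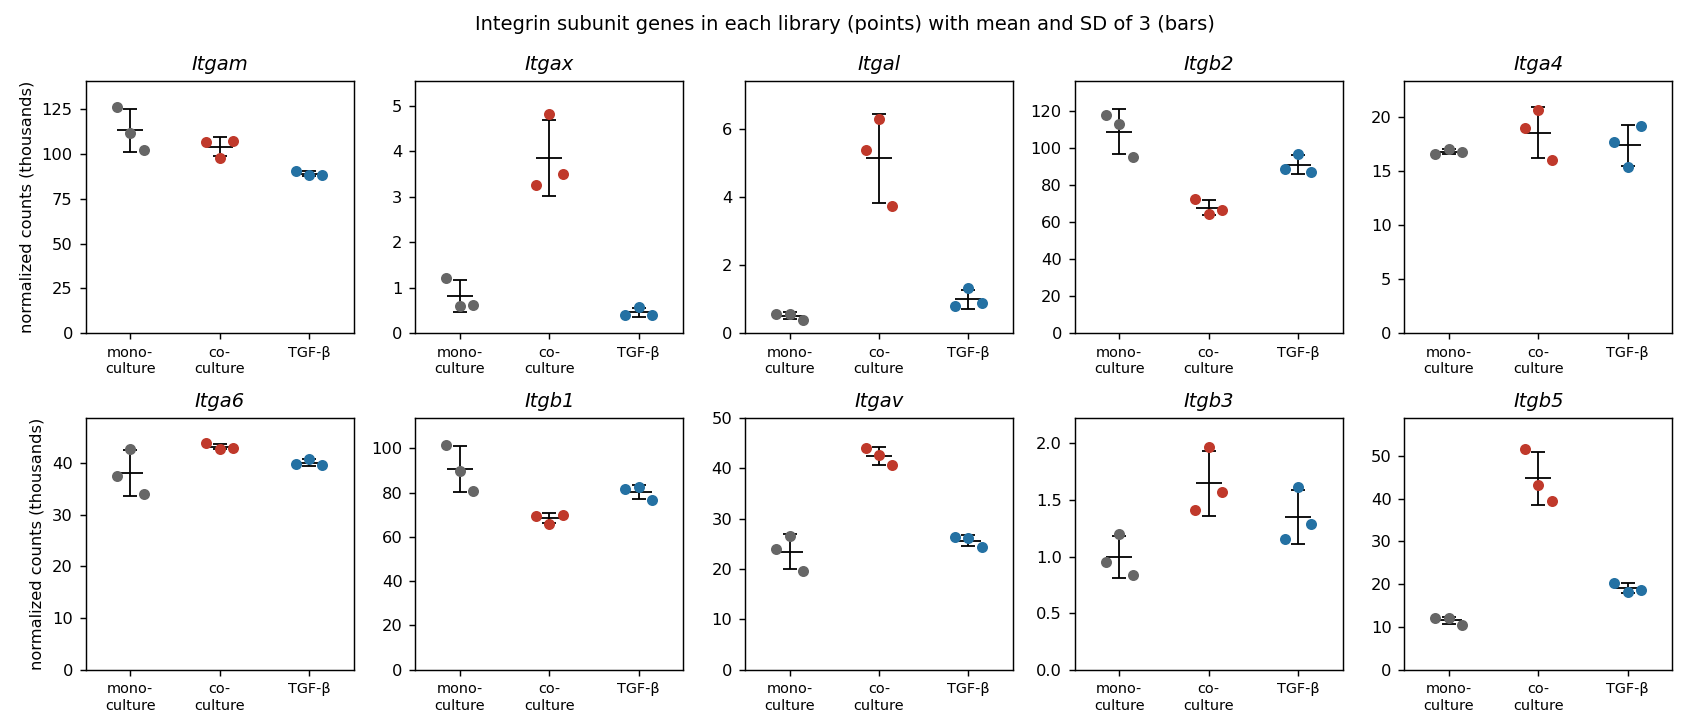
Normalized counts (linear axis from 0, a scale for each gene) of the 10 subunit genes in each library (points), with the mean and SD of 3 libraries (black bars), for monoculture, co-culture and TGF-β. Itgax, Itgal, Itgav and Itgb5 stand higher in the 3 co-culture libraries than in any other library, and Itgb1 and Itgb2 stand lower.

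**Figure D2:**
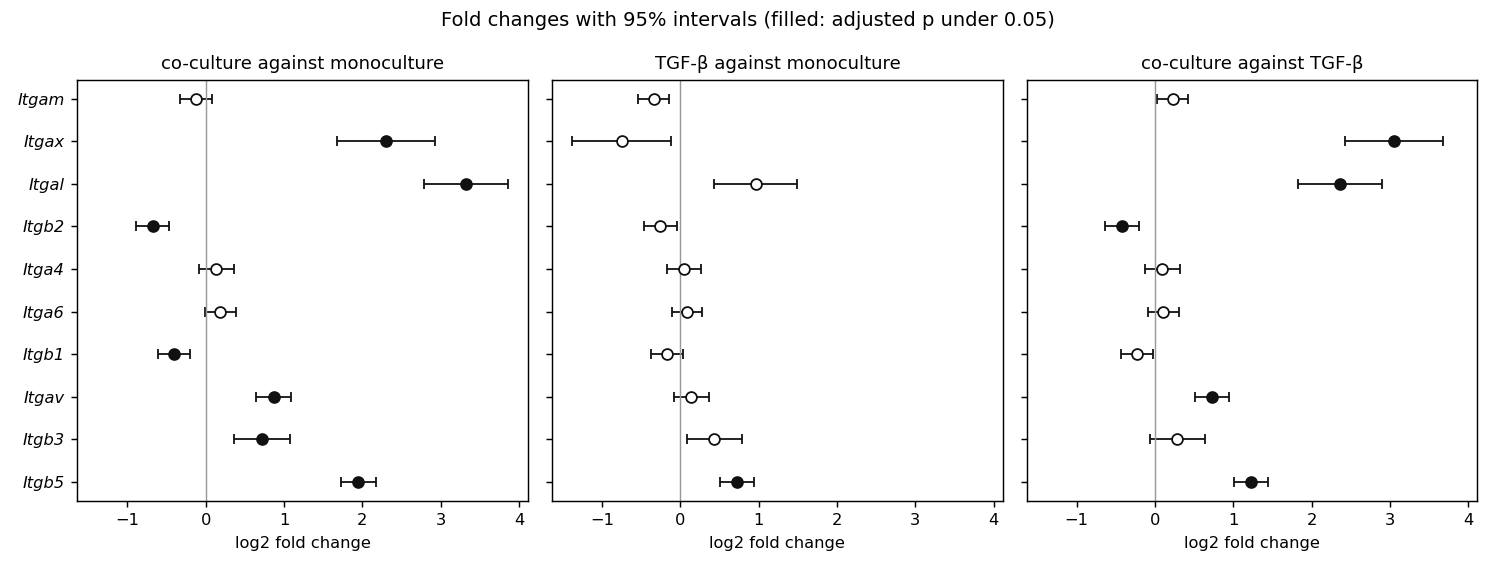
Log2 difference (log2(normalized count + 10), horizontal axis) with its 95% interval for each of the 10 genes in the 3 comparisons. Filled points have an adjusted p under 0.05: 7 genes for co-culture against monoculture, 1 for TGF-β against monoculture and 5 for co-culture against TGF-β.

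The β2 group was measured first by its α chains. Itgam, Itgax and Itgal all lie on chromosome 7 of mm10 in GENCODE M21: Itgam at 128062640 to 128118491, Itgax at 128129547 to 128150657, 11.1 kb further on, and Itgal at 127296260 to 127335138, 727.5 kb before Itgam. All 3 are on the plus strand. Itgad, a further β2 partner, starts 3.72 kb after the end of Itgax. The 250 bases before the RefSeq start of Itgam and of Itgax (GRCm38.p6, plus strand, chr7:128062390-128062639 and chr7:128129300-128129549) are shown because these neighbouring genes, whose products share a β chain, differed in their response.
Itgam: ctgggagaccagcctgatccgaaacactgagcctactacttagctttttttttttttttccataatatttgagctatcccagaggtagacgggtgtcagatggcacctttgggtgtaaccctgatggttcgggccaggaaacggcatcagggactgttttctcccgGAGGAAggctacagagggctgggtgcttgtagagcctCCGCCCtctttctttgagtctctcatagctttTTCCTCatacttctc
Itgax: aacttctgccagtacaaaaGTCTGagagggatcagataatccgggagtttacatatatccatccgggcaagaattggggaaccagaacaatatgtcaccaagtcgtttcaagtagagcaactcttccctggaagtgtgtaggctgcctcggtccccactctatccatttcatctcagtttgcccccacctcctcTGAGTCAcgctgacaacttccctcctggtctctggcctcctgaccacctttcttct
Capitals mark every match on either strand to the 5 motifs searched, and no matches overlap. The motifs were the PU.1 core GAGGAA, the SMAD-binding element CAGAC, the TATA box TATAAA, the GC box GGGCGG and the AP-1 site TGANTCA, where N is any base, and a match on the other strand shows its reverse complement. GAGGAA was in 23.3% of 32851 promoters of the same length, CAGAC in 42.2%, the AP-1 site in 6.75%, TATAAA in 12.4% and GGGCGG in 32.7%. The Itgam sequence held 2 GAGGAA and 1 GGGCGG, and the Itgax sequence held 1 CAGAC and 1 AP-1 site. A match is a run of letters and does not show that a factor binds there.

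Itgam encodes αM, the CD11b chain of Mac-1 (complement receptor 3). Its normalized counts were 126129, 111716 and 102238 in monoculture, 106922, 97997 and 107329 in co-culture, and 90603, 88127 and 88523 with TGF-β. Co-culture and monoculture overlapped, while every TGF-β library lay below every library of the other groups. The log2 difference was -0.12 ± 0.09 (SE, adjusted p = 0.387, 95% interval -0.32 to 0.08) for co-culture and -0.34 ± 0.09 (adjusted p = 0.0795) for TGF-β against monoculture. The second passed under 1 of 18 alternative settings, DESeq2 on the recovered reads (adjusted p = 0.00557). In GENCODE M21, 68.7% of the exon bases of Itgam are shared with a gene model on the same strand, Gm49368, which has no row in the table.

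Itgax encodes αX, the CD11c chain known from dendritic cells and from tissue macrophages, including those of the brain in injury and disease. In monoculture Itgax had 1216, 595 and 611 normalized counts, against 3259, 4812 and 3498 in co-culture and 407, 570 and 391 with TGF-β. The 3 groups did not overlap, with co-culture highest and TGF-β lowest. Itgax rose by 2.30 ± 0.28 on the log2 scale in co-culture (SE, adjusted p = 1.40e-04), a ratio of means of 4.78. With TGF-β the log2 difference from monoculture was -0.75 ± 0.28 (adjusted p = 0.237, 95% interval -1.38 to -0.12), and co-culture exceeded TGF-β by 3.05 ± 0.28 (adjusted p = 2.80e-05). Of the dendritic cell markers, Flt3 was at 0.69 at most in the co-culture libraries, and Zbtb46 was at 34.3, 42.2 and 19.3 there against 21.1, 34.5 and 26.3 in monoculture, with overlap and no call. The part of dendritic cells in the level of Itgax was not tested.

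Itgal encodes αL, the CD11a chain of LFA-1, the receptor for ICAMs on lymphocytes and other leukocytes. Its normalized counts were 575, 549 and 384 in monoculture, 5386, 6307 and 3739 in co-culture, and 784, 1313 and 891 with TGF-β. No group overlapped another, and the order was monoculture, TGF-β, co-culture. The increase of 3.32 ± 0.24 in co-culture (log2, SE, adjusted p = 1.90e-06), a ratio of means of 10.2, was the largest of the 10 genes. Co-culture exceeded TGF-β by 2.36 ± 0.24 (adjusted p = 4.02e-05). The difference with TGF-β was 0.96 ± 0.24 with an adjusted p of 0.0741 and was called under 4 of 18 alternative settings. Those were DESeq2 (4.18e-04), a fit of the 2 groups alone (0.0282), a fit with the replicate number as a block (0.00535) and the fit without co-culture library 3 (0.0277). Over all 18 the adjusted p ran from 4.18e-04 to 0.183. Cd3d, of the T cell receptor complex, was at 0 in every monoculture and TGF-β library and at most at 1.56 in co-culture. It is 1 of 3 listed lymphocyte markers in the table, which summed to at most 12.5 in any library. The part of lymphocytes in the level of Itgal was not tested.

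Itgb2 encodes β2, the CD18 chain that all of these α chains need to reach the cell surface, and it lies on chromosome 10 at 77530252 to 77565708. Its normalized counts were 118004, 113172 and 94913 in monoculture, 72320, 64549 and 66287 in co-culture, and 88569, 96756 and 87169 with TGF-β. The co-culture libraries lay below all others, and the TGF-β libraries overlapped monoculture. Itgb2 fell by 0.68 ± 0.10 on the log2 scale in co-culture (adjusted p = 1.16e-04) and stood 0.42 ± 0.10 below TGF-β on that scale (adjusted p = 0.00619). With TGF-β the log2 difference was -0.25 ± 0.10 (adjusted p = 0.237). Of the 8 macrophage markers, Emr1 (F4/80) fell in co-culture by 0.69 ± 0.11 on the log2 scale, Mertk and Tyrobp rose, by 2.37 ± 0.11 and 0.37 ± 0.11, and the other 5 gave no call.

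The β1 group followed. Itgb1 encodes β1, the partner of most α chains in most tissues, and lies on chromosome 8 at 128685654 to 128733200. Itgb1 was measured at 101680, 89533 and 80870 normalized counts in monoculture, 69529, 66013 and 69878 in co-culture, and 81817, 82631 and 76733 with TGF-β. The co-culture libraries were the lowest, and TGF-β overlapped monoculture. Itgb1 fell by 0.40 ± 0.10 on the log2 scale in co-culture (adjusted p = 0.00509). Its log2 difference was -0.17 ± 0.10 with TGF-β (adjusted p = 0.447) and -0.23 ± 0.10 between co-culture and TGF-β (adjusted p = 0.0953, no overlap).

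Itga4 and Itga6, like Itgam, gave no call in any of the 3 comparisons. Itga4 encodes α4, the VLA-4 chain that binds VCAM-1 and fibronectin, and lies on chromosome 2 at 79255426 to 79333123. Its normalized counts were 16573, 17001 and 16733 in monoculture, 18981, 20666 and 15989 in co-culture, and 17627, 15368 and 19141 with TGF-β. All groups overlapped, and the 95% intervals of the log2 difference from monoculture were -0.09 to 0.36 in co-culture (adjusted p = 0.360) and -0.18 to 0.27 with TGF-β (adjusted p = 0.900). Of the Itga4 exon bases, 8.04% are shared with Cerkl on the opposite strand, at 119.7 to 216.4 normalized counts per library.

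Itga6 encodes α6, a laminin receptor chain, and lies on chromosome 2 at 71745616 to 71858416. Monoculture libraries had 37542, 42718 and 33932 normalized counts of Itga6, co-culture libraries 43809, 42757 and 42946, and TGF-β libraries 39864, 40758 and 39576. Every co-culture library was above every other library, but the highest monoculture library lay just under the lowest co-culture library. The log2 difference was 0.19 ± 0.09 in co-culture (adjusted p = 0.135, 95% interval 0.00 to 0.38) and 0.08 ± 0.09 with TGF-β (adjusted p = 0.755). Without monoculture library 2 the co-culture difference was called (adjusted p = 0.0368).

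The αv group held the member that rose in both comparisons, Itgb5. Upstream sequences of Itgav and Itgb5, whose products pair as αvβ5, are shown because both genes rose in co-culture (GRCm38.p6, plus strand, chr2:83724147-83724396 and chr16:33829415-33829664).
Itgav: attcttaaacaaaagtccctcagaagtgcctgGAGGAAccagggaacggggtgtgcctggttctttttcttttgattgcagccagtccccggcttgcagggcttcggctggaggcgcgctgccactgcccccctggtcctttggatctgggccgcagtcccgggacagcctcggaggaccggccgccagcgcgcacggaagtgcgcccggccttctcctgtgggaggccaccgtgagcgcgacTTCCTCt
Itgb5: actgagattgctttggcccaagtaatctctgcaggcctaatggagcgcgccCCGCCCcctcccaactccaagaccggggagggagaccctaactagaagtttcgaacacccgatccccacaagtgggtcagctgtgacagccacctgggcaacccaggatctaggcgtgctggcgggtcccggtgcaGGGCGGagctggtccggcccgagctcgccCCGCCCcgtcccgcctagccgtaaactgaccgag
Capitals again mark matches to the 5 motifs. The Itgav sequence held 2 GAGGAA, and the Itgb5 sequence held 3 GGGCGG and no other match, with 65.2% G or C against 49.6% for Itgam and 50.0% for Itgax. The letters CAGAC, carried by the Itgax sequence, were in neither of these windows.

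Itgav encodes αv, the chain shared by the vitronectin receptors, and lies on chromosome 2 at 83724397 to 83806916. Its normalized counts were 24054, 26577 and 19652 in monoculture, 44129, 42719 and 40571 in co-culture, and 26393, 26089 and 24391 with TGF-β. The co-culture libraries were well above all others, and TGF-β overlapped monoculture. Itgav rose by 0.87 ± 0.10 on the log2 scale in co-culture (adjusted p = 1.47e-05), a ratio of means of 1.81, and was 0.73 ± 0.10 higher than with TGF-β (adjusted p = 1.09e-04). With TGF-β its log2 difference was 0.14 ± 0.10 (adjusted p = 0.593, 95% interval -0.08 to 0.36).

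Itgb5 encodes β5, which pairs with αv, and lies on chromosome 16 at 33829665 to 33949338. Monoculture gave 12001, 12001 and 10556 normalized counts of Itgb5, co-culture 51491, 43162 and 39508, and TGF-β 20370, 18216 and 18584. The 3 groups did not overlap, and TGF-β lay between the other two. Itgb5 rose by 1.95 ± 0.10 in co-culture (log2, SE, adjusted p = 5.35e-09) and by 0.73 ± 0.10 with TGF-β (adjusted p = 0.00158), which are ratios of means of 3.88 and 1.65. Co-culture exceeded TGF-β by 1.22 ± 0.10 (adjusted p = 8.79e-07). All 3 calls held under each of 18 alternatives.

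Itgb3 encodes β3, the other vitronectin receptor chain, prominent on osteoclasts and platelets, and lies on chromosome 11 at 104608000 to 104670476. The 3 monoculture libraries had 953, 1201 and 841 normalized counts of it, the co-culture libraries 1408, 1967 and 1567, and the TGF-β libraries 1155, 1615 and 1284. Co-culture stood above monoculture without overlap, and TGF-β overlapped both. Itgb3 rose by 0.72 ± 0.16 in co-culture (log2, SE, adjusted p = 0.00387), and the log2 difference with TGF-β was 0.43 ± 0.16 (adjusted p = 0.213). Of 6 osteoclast markers tested, 2 rose and 4 fell in co-culture. Ocstamp, 1 of the 2, reached the level filter only through the co-culture libraries, in which it was high. The 8 markers listed summed to 2288 to 3619 in co-culture against 8835 to 13977 in monoculture. Most of that sum was 1 gene, Atp6v0d2, at 1115 to 2221 and 6454 to 10637. The 2 platelet lineage markers that could be tested gave no call for co-culture against monoculture in limma, edgeR or DESeq2, and neither had an unadjusted p under 0.05. With TGF-β 1 of the 2 had an unadjusted p under 0.05 and was called by DESeq2, and none was called by limma or edgeR.

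Fibroblasts and Schwann cells also make αv, β1 and β5. Fibroblast markers and Sox10 were high in the co-culture libraries, while the summed level of the 10 glial markers was lower there than in monoculture. The summed fibroblast markers were 8199 normalized counts higher in co-culture than in monoculture, Itgb5 was 33201 higher and Itgav 19046 higher. Counts of different genes, not scaled for length or for the level per cell, do not show which cells a rise came from. With TGF-β, limma called none of the 12 fibroblast and 10 glial markers tested. In each list 1 marker had an unadjusted p under 0.05, DESeq2 called 1 in each list, and edgeR called 1 glial and no fibroblast marker. The part of these cells in the co-culture differences was not tested.

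Levels of different genes were set side by side per kb of exon. For Itgam, 68.7% of these bases are shared with Gm49368, and how reads there were counted is not given. The level per kb of Itgam and all shares among the α genes carry that limit. In monoculture the 6 α members ranked Itgam first, with 22564 normalized counts per kb, then Itga6 (4218), Itgav (2181), Itga4 (1200), Itgax (168) and Itgal (76.5). Of the other α genes, Itga5 (3173) lay between Itga6 and Itgav, and Itga8 (168) and Itga9 (149) lay within the spread of Itgax. In co-culture Itgav passed Itga5, at 3953 against 2328, with no overlap between their libraries, and Itga9 (1367 ± 278) came within the spread of Itga4 (1327 ± 169). There, Itgal (783 ± 198) and Itgax (803 ± 174, SD, n = 3) lay within each other's spread. For the β chains the order Itgb2, Itgb1, Itgb5 held in all 3 groups, at 35615, 22224 and 3242 in monoculture, 22188, 16779 and 12587 in co-culture, and 29761, 19700 and 5364 with TGF-β.

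Summed over the 8 β genes, the level per kb was 62743 ± 6936 in monoculture, 51892 ± 3147 in co-culture and 55954 ± 2266 with TGF-β (SD, n = 3). The share of Itgb5 in it was 5.18% for monoculture (4.90 to 5.38%), 24.2% for co-culture (22.1 to 26.1%) and 9.60% for TGF-β (8.81 to 10.2%), and the groups did not overlap. Over the same groups the share of Itgb2 was 56.8%, 42.8% and 53.2%, and that of Itgb1 was 35.4%, 32.4% and 35.2%. Among the 18 α genes, which summed to 33912 ± 3103, 36175 ± 520 and 29227 ± 77.7 per kb, Itgam held 66.5%, 57.3% and 60.7%. The share of Itgav was 6.42% in monoculture, 10.9% in co-culture and 8.16% under TGF-β. Itgax held 0.490%, 2.22% and 0.325%, and Itgal 0.224%, 2.16% and 0.519%. Shares of 1 sum are tied to each other, so that a higher share of Itgb5 lowers the others.

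**Figure D3:**
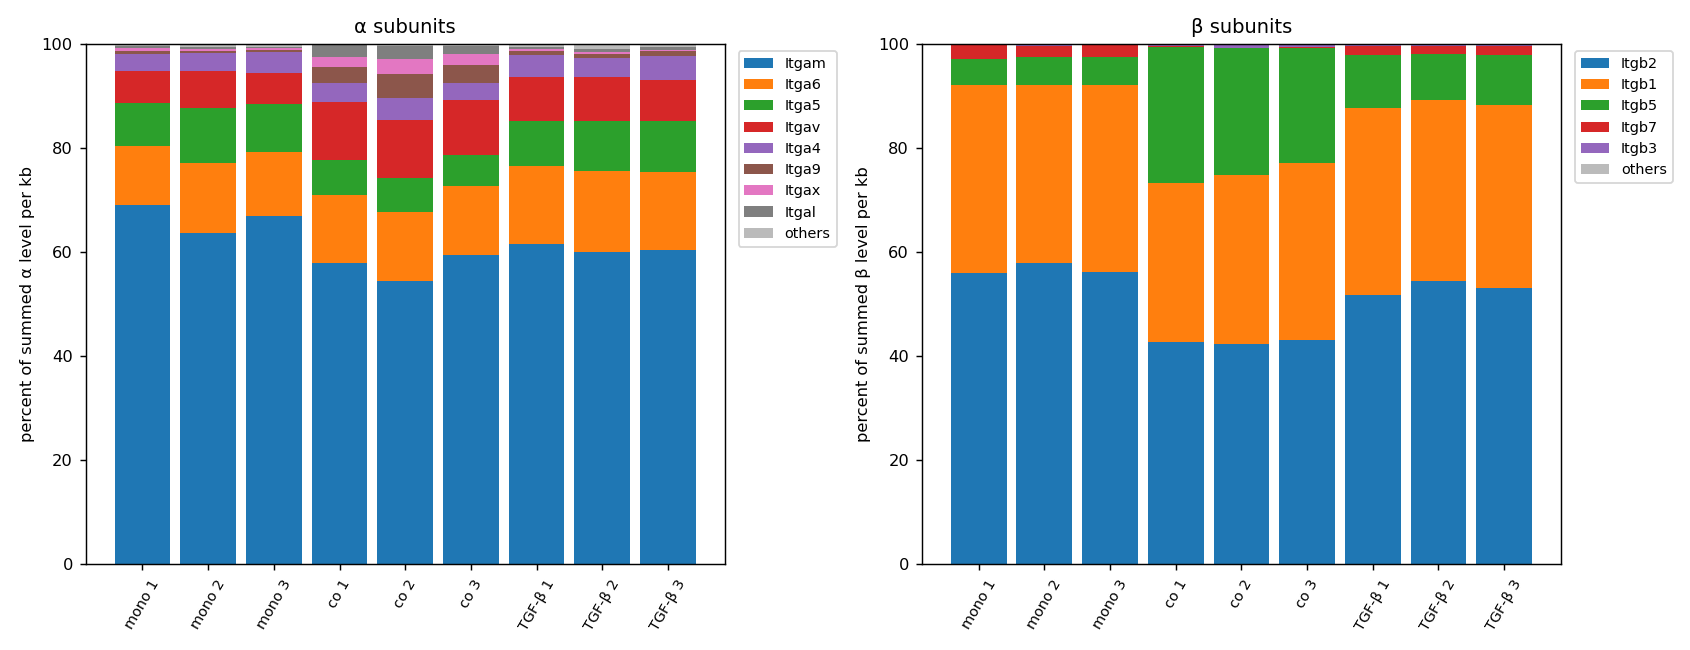
Share (percent, stacked) of each gene in the summed level per kb of exon of the 18 α and the 8 β subunit genes, for each of the 9 libraries. Itgb5 takes 22.1 to 26.1% of the β sum in co-culture and 4.90 to 5.38% in monoculture.

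Ratios of 2 subunit genes within a library do not depend on how libraries are scaled. Of 9 pairs whose products meet in an integrin or compete for αv, 8 had ratios without overlap between co-culture and monoculture, 4 between TGF-β and monoculture and 7 between co-culture and TGF-β. Across all tested genes, single levels were without overlap for 45.0%, 16.9% and 41.0% in these comparisons. No such share was computed for ratios of 2 genes, and the 9 pairs repeat the same few genes. The 27 exact two-sided permutation tests could not go below p = 0.1 with 3 against 3 libraries, the lowest adjusted p was 0.142, and none passed. The ratio of Itgam to Itgb2 was 0.56 ± 0.06 higher in co-culture than in monoculture on the log2 scale (SE), and that of Itgax to Itgb2 was 2.98 ± 0.36 higher. The log2 ratio of Itgav to Itgb5 differed from monoculture by -1.08 ± 0.11 in co-culture and by -0.59 ± 0.09 with TGF-β. Per kb, Itgav stood at 0.670 of Itgb5 in monoculture, 0.317 in co-culture and 0.445 with TGF-β. The ratio of Itgav to Itgb3 overlapped between co-culture and monoculture (a log2 difference of 0.15 ± 0.16).

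**Figure D4:**
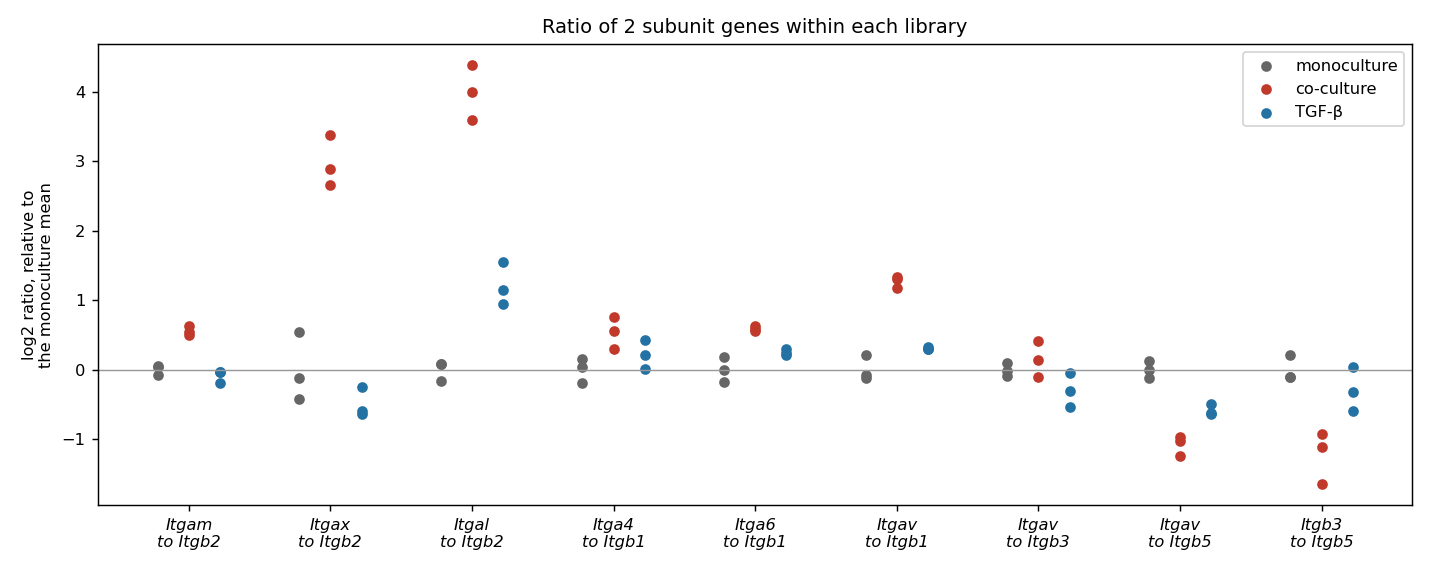
Log2 ratio of 2 subunit genes within each library, relative to the monoculture mean of that pair (vertical axis), for 9 pairs in monoculture, co-culture and TGF-β. Co-culture libraries lie apart from monoculture for 8 of the 9 pairs, all but Itgav to Itgb3.

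The other integrin subunits came from a list of 17 genes, of which 16 were in the table and 15 were tested. Of the 15, 5 rose and 3 fell in co-culture, 1 rose with TGF-β, and 6 were higher and 2 lower in co-culture than with TGF-β. Only 11 of the 15 reached the level filter without the co-culture libraries, and of these 3 rose and 3 fell in co-culture. The other 2 of the 5, Itga11 and Itgb8, passed the filter through the co-culture libraries in which they were high, so that their tests support nothing. All tested genes gave 15.9% higher and 15.0% lower in co-culture, and those that passed without co-culture libraries 14.1% and 15.9%. For TGF-β the share called was 2.52%, and for co-culture against TGF-β 25.3%. In the latter comparison 4 of the 11 were higher and 2 lower, beside 11.7% and 12.7% of all genes that passed without co-culture libraries. Itga2b, 1 of the 6 higher than with TGF-β, lost that call under 4 of 17 alternatives, on leaving out co-culture library 1 or 2 or TGF-β library 1 or 3 (adjusted p of 0.0631 to 0.160).

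Itga9, whose α9 chain pairs with β1 and binds tenascin-C and VCAM-1, had 1262, 1151 and 1027 normalized counts in monoculture, 8734, 12889 and 9911 in co-culture, and 1726, 1521 and 1927 with TGF-β. No groups overlapped. It rose by 3.17 ± 0.14 in co-culture (log2, SE, adjusted p = 1.30e-09), and with TGF-β by 0.58 ± 0.14 (adjusted p = 0.0419). The TGF-β call was lost under 8 of 18 alternatives, with adjusted p from 0.0525 to 0.165, among them edgeR, the replicate block, and leaving out any 1 monoculture library or TGF-β library 1 or 3.

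Itgb7, whose β7 chain pairs with α4 to form a receptor for MAdCAM-1, had 5063, 3934 and 3395 normalized counts in monoculture, 80.4, 64.9 and 234.5 in co-culture, and 2666, 2393 and 2400 with TGF-β. The 3 groups did not overlap and co-culture was lowest. It fell by 5.11 ± 0.40 on the log2 scale in co-culture (adjusted p = 2.65e-05), the largest difference of any subunit gene in size, and the log2 difference with TGF-β was -0.71 ± 0.40 (adjusted p = 0.483). Itga4, its partner, gave no call.

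Itga5 (α5, the fibronectin receptor chain) fell in co-culture by 0.44 ± 0.10 on the log2 scale (adjusted p = 0.00419), and Itga8 (α8, which pairs with β1) by 1.39 ± 0.18. Itga7, Itga11 and Itgb8 were low in macrophages grown alone, at 3.87 to 16.1, at 0 in each library, and at 0 to 16.2 normalized counts. They were at 89.9 to 135.5, 21.9 to 46.9 and 49.2 to 196.8 in co-culture. Of these, Itga7 reached the filter without co-culture libraries, and it rose by 2.60 ± 0.33 on the log2 scale (adjusted p = 2.71e-05). These low genes were higher in the libraries where fibroblast markers and Sox10 were high, and the part of fibroblasts and Schwann cells was not tested. Itga1 also rose in co-culture, from 18.4 to 30.9 up to 43.3 to 118.3, and its call was lost under 6 of 17 alternatives, including the omission of monoculture library 2 or 3 or of co-culture library 2 or 3 (adjusted p up to 0.126). Itgad, next to Itgax on chromosome 7, stayed at or below 17.3 in every library and gave no call.

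**Figure D5:**
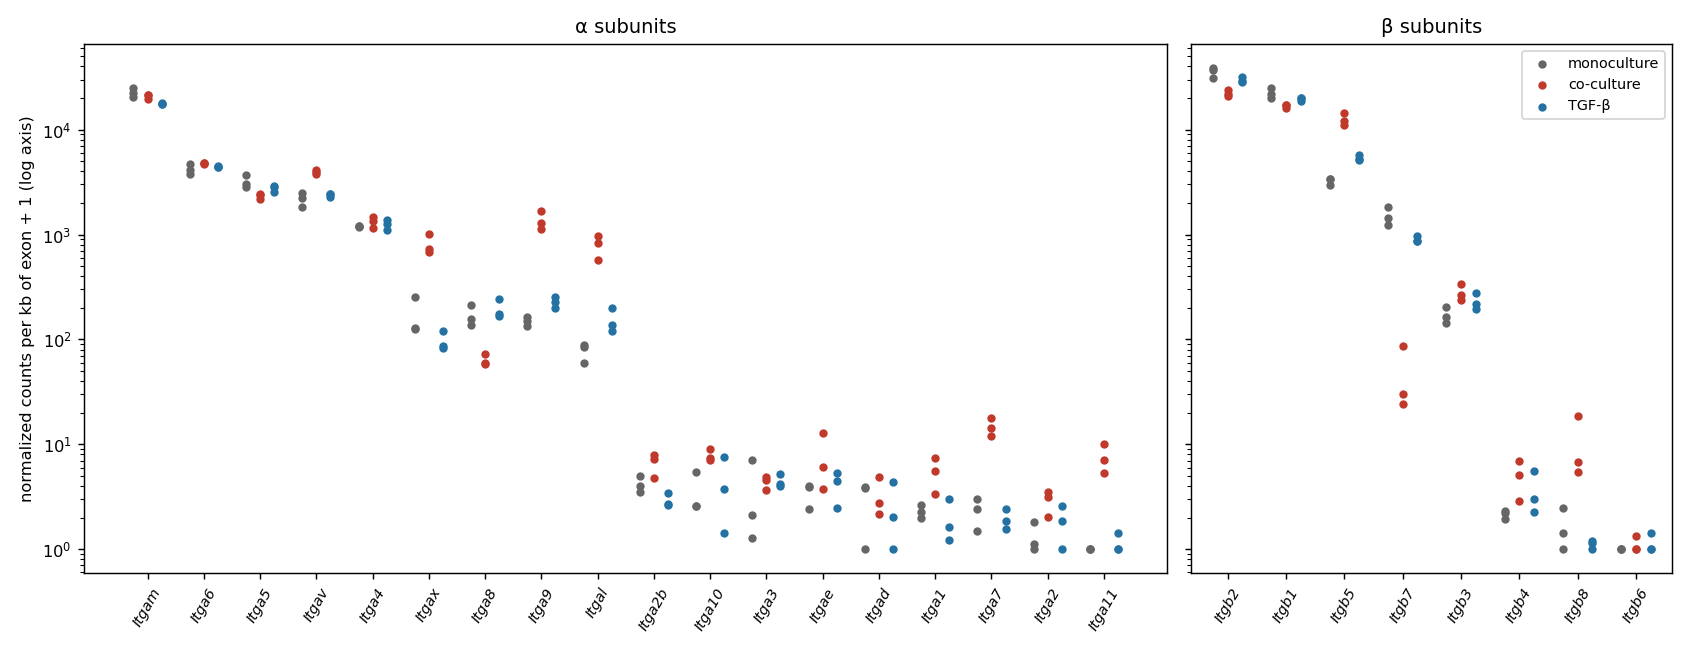
Normalized counts per kb of exon plus 1 (log axis) of 18 α and 8 β subunit genes in each library, coloured by group. The genes named here as low (Itga7, Itga11, Itgb8) lie far below the 10 members, and Itgb7 is far lower in co-culture than in the other groups.

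Ligands of integrins came from a list of 32 genes, 30 of them tested. In co-culture 15 rose and 5 fell, and among the 21 that reached the level filter without co-culture libraries 7 rose and 5 fell. Those counts stand beside 15.9% and 15.0% of all tested genes, and 14.1% and 15.9% of all that passed without co-culture. With TGF-β 2 rose and 1 fell, beside 1.13% and 1.39% of all tested genes. Tnc (higher) lost its call under 12 of 18 alternatives and Ltbp1 (lower) under 11, with adjusted p up to 0.389 and 0.189. Among these were leaving out any library but monoculture library 1 for Tnc, and any monoculture library, co-culture library 1 or TGF-β library 1 or 2 for Ltbp1. F11r, which encodes JAM-A, a junction protein and ligand of LFA-1, had 268, 291 and 187 normalized counts in monoculture, 2218, 2014 and 1817 in co-culture, and 547, 636 and 452 with TGF-β. The 3 groups of F11r did not overlap. It rose by 2.99 ± 0.18 in co-culture (log2, SE, adjusted p = 1.51e-08) and by 1.11 ± 0.18 with TGF-β (adjusted p = 0.00350). Tnc, the tenascin-C gene, ran from 0 to 3.25 normalized counts in monoculture libraries, from 1257 to 1403 in co-culture libraries, and from 12.0 to 13.6 under TGF-β. Lamb1 and Nid1, of basement membranes, were at 223.5 to 291.0 and 543.9 to 606.0 in co-culture and at most 4.60 and 9.74 in monoculture. All 3 are matrix genes that fibroblasts and Schwann cells make.

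Genes that switch integrins on or off inside the cell came from a list of 21, with 19 tested. In co-culture 5 rose and 5 fell, beside 15.9% and 15.0% of all tested genes. Fermt2, 1 of the 5 that rose, reached the level filter only through the co-culture libraries. Among the 18 that reached it without them 4 rose and 5 fell, beside 14.1% and 15.9% of all such genes. With TGF-β none passed in limma or edgeR, 1 was lower in DESeq2, and 7 had an unadjusted p under 0.05 in limma. Flna, whose filamin A holds integrins inactive by binding β tails, had 254301, 253829 and 229950 normalized counts in monoculture, 100128, 119611 and 100718 in co-culture and 189472, 217811 and 220594 with TGF-β. The co-culture libraries were far below the rest. Flna fell by 1.21 ± 0.10 on the log2 scale in co-culture (adjusted p = 7.04e-07). Rassf5, whose RAPL protein carries the Rap1 signal to αL, rose by 0.66 ± 0.09 in co-culture (adjusted p = 3.51e-05), and Rasgrp2, which loads Rap1 with GTP, by 1.92 ± 0.27 (adjusted p = 8.95e-05).

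Proteins of the adhesion complex, which tie the β tail to actin and to kinases, were represented by 32 genes, all tested. In co-culture 7 rose and 13 fell, with TGF-β 1 rose and 5 fell, and against TGF-β co-culture was higher in 7 and lower in 10. All tested genes were called in 30.8%, 2.52% and 25.3% in these comparisons. Parva passed the level filter only through the co-culture libraries, in which it was high. Of the 31 that passed without them, 6 rose and 13 fell in co-culture, beside 14.1% and 15.9% of all such genes. Against TGF-β, co-culture was higher in 6 of the 31 and lower in 10, beside 11.7% and 12.7%. Zyx, 1 of the 5 lower with TGF-β, lost its call without monoculture library 1 or 2 or TGF-β library 1 (adjusted p of 0.0538 to 0.0762). Ptk2, the gene of focal adhesion kinase, had 4196, 4115 and 4493 normalized counts in monoculture, 922, 817 and 924 in co-culture, and 2647, 2797 and 2997 with TGF-β. No group overlapped another and co-culture was lowest. Ptk2 fell by 2.25 ± 0.09 on the log2 scale in co-culture (adjusted p = 5.14e-10) and by 0.60 ± 0.09 with TGF-β (adjusted p = 0.00289).

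Vcl, the gene of vinculin, which links talin to actin, had 12238, 10767 and 11228 normalized counts in monoculture, 3606, 4196 and 3601 in co-culture, and 6228, 6296 and 7208 with TGF-β. Its groups too were apart. Vcl fell by 1.59 ± 0.09 on the log2 scale in co-culture (adjusted p = 1.29e-08) and by 0.80 ± 0.09 with TGF-β (adjusted p = 3.47e-04). Parvg, the gene of γ-parvin, the parvin of blood cells, went the other way, at 1221, 1415 and 1167 in monoculture, 5260, 6768 and 6024 in co-culture, and 1883, 2454 and 2113 with TGF-β. Parvg rose by 2.24 ± 0.12 in co-culture (adjusted p = 7.23e-09) and by 0.75 ± 0.12 with TGF-β (adjusted p = 0.00396).

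Membrane partners of integrins were 14 genes, all tested, and in co-culture 3 rose and 5 fell, beside 15.9% and 15.0% of all tested genes. The tetraspanin genes Cd37 and Cd9 fell by 0.99 ± 0.10 and by 0.75 ± 0.11 on the log2 scale (adjusted p = 3.59e-06 and 1.12e-04). Cd47, whose product binds integrins in cis and SIRPα on other cells, fell by 0.62 ± 0.08 (adjusted p = 4.95e-05). Tspan32, a tetraspanin of blood cells, rose by 1.20 ± 0.14 (adjusted p = 1.30e-05) and was the 1 gene of this list called with TGF-β (0.71 ± 0.14, adjusted p = 0.0133). That is 1 of 14, beside 2.52% of all tested genes called with TGF-β. The TGF-β call of Tspan32 was lost without monoculture library 1 or TGF-β library 1, with adjusted p of 0.0519 to 0.0723.

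Genes of similar profile were sought among the tested genes, leaving out the members themselves and numbered gene models. For each member, the gene with the highest Pearson correlation of log2(normalized count + 10) over the 9 libraries was taken. Each correlation describes 9 points that share 3 conditions. The nearest genes were Copa for Itgam (r = 0.967), Jade2 for Itgax (0.996), Fkbp5 for Itgal (0.993), Cpd for Itgav (0.997), Calu for Itgb1 (0.987), Gnas for Itgb2 (0.989), Pilrb1 for Itgb3 (0.964) and Mr1 for Itgb5 (0.998). For Itga4 and Itga6, which gave no call, the nearest were the low genes Olfr755-ps1 (0.953) and Cyp39a1 (0.947).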

How the data were processed

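The deposited table gives, for 24607 genes and 9 libraries, a normalized signal. Dividing by the value of 1 read gave whole reads for 100.0% of values (within 0.05), so the values are read as gene counts divided by 1 size factor for each library. Per the labels' protocols, 10 ng of RNA from sorted cells went into a stranded SMART-Seq kit. The submitters' processing notes list STAR 2.7.3, bcl2fastq 2.20, R 3.6.1 and DESeq2 1.24.0 with the build mm10, and give no roles. The counting program, strand setting and annotation are not given in the sources used here.

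The test was limma 3.58.1 (R 4.3.3, trend, robust) on log2(value + 10), in genes at 10 or more in at least 3 libraries, in 1 fit of all 9, with Benjamini-Hochberg adjustment. All 10 members passed this filter in every library. edgeR 4.0.16 and DESeq2 1.42.0 were run on the recovered reads as alternatives, and edgeR called 4947, 390 and 4019 genes in the 3 comparisons in the order given in the text. Scripts were tested on simulated data. Ratios used exact permutation tests (scipy 1.17.1), and exon lengths came from GENCODE M21. The promoter table held 6 of the 10 members. Named genes were the members, any other subunit, the 4 called genes of smallest p in each list and comparison at most, and the nearest gene of each member. Single marker genes and genes that share exon bases with a member were named after their values were seen. The members and lists were chosen with earlier results of these data known.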

Additional observations from a re-analysis of the deposited data

How the results depend on the processing

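The members called numbered 7 for co-culture against monoculture and 5 for co-culture against TGF-β, and the same genes were called under every alternative, with Itga6 added to the first without monoculture library 2. Leaving out 1 library at a time gave 7 to 8, 1 to 2 (TGF-β against monoculture) and 5 calls. For TGF-β against monoculture the 1 call became 3 with DESeq2 and 2 with only the 2 groups in the fit, in each case with Itgb5 kept. Of 540 alternative values for the 30 member differences, 533 kept direction and side of the threshold, 6 newly passed, and 1 reversed: Itga4 with TGF-β, at -0.027 without TGF-β library 3 (-0.027 to 0.13 over libraries left out). Genes called in all for TGF-β against monoculture numbered 412, 907 with DESeq2 and 165 (without TGF-β library 1) to 935 (without TGF-β library 3) on leaving out a library. For co-culture against TGF-β, 4128 became 2669 to 4601, lowest without co-culture library 2, and for co-culture against monoculture 5033 became 3610 to 5468. Of 1091 values for other listed genes, 51 lost their call. All 189 for ratios kept their sign, which was the only point checked for them. The cause of these shifts was not tested.

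The replicate number is not known to mark a shared mouse, so the numbers were not taken to pair libraries. Deviations from the group means correlated at -0.147 to 0.372 between libraries of the same number and at -0.351 to 0.249 between the others. With 3 libraries in each group these values cannot settle whether mice were shared. With the replicate number as a block, 4926, 397 and 3956 genes were called, and 7, 2 and 5 members, Itgal being added with TGF-β. The least deep library, at 46.8 M reads, limits the genes near 0, not the 10 members.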
